A study of Mus musculus with 6 samples.

Results

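The 10 genes described here encode elastic and matricellular proteins of the extracellular matrix: Fn1, Sparc, Fbn1, Eln, Lox, Loxl1, Postn, Thbs1, Thbs4 and Tnc. They were listed by name, with earlier results of these data known. All 10 were found once each among the 52550 mouse genes of the deposited table, which lists 52649 features including 99 spike-in RNAs. All 10 were among the 13396 genes that passed the filter on low counts. RNA from muscle of 3 FLExDUX4 and 3 wild-type (WT) male mice, 13 weeks old per the labels, was sequenced with QuantSeq, a 3′ mRNA assay in which long and short transcripts yield about the same number of reads, so levels were not divided by length. FLExDUX4 mice are hemizygous for a human DUX4 transgene in the Rosa26 locus, which is inverted between lox sites and expressed at a very low level without Cre. No Cre line is named for these animals, and the WT mice, in this study littermates of the FLExDUX4 mice, lack the transgene. The human transgene was not analysed here. A search for the names Dux, Duxf and DUX4 found Duxf3, which had 0 counts in both genotypes. Mouse double homeobox genes under other names were not searched for.

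The labels give quadriceps as the tissue, whereas the methods of the study give triceps from mice 2 months old. Markers of fast myofibers had 1630173 counts in FLExDUX4 mice and 2363300 in WT mice. Of the genes that mark limb position, Tbx5, Hoxc4 and Hoxc5 of the forelimb had 62 and 94 counts together, while Pitx1, Tbx4, Hoxc9, Hoxc10 and Hoxc11 of the hindlimb had 10 and 12, and all but Tbx4 were at 0 or 1 in each genotype. The position markers therefore went against the quadriceps label, and the samples are called muscle below.

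Elastic fibers let a tissue recoil after stretch. Tropoelastin, the product of Eln, is deposited on microfibrils of fibrillin, the product of Fbn1, and is then crosslinked by lysyl oxidases such as the products of Lox and Loxl1. Fibronectin, from Fn1, is a scaffold on which other matrix proteins assemble. The matricellular proteins SPARC, periostin, tenascin-C and the thrombospondins are secreted into the matrix but mainly regulate how cells attach to it, and in muscle they are known for their part in repair, in tendon attachments and in fibrosis.

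The deposited table gives, for each gene, the count summed over the 3 mice of a genotype, and no values per mouse entered, since the headings of those columns match none of the labels. Each genotype is therefore a single total, no test across mice was made, and no ratio below has a replicate check. Genes took 13110125 counts in the FLExDUX4 total and 18367364 in the WT total. Levels are given as CPM, counts per 1000000 counts on genes, after scaling by TMM, edgeR's trimmed mean method, and differences as the log2 ratio of FLExDUX4 to WT. Intervals are 95% intervals that cover counting error only. Scaling to the spike-in totals lowered every ratio by 0.28 on the log2 scale, and the median ratio of all genes compared was 0.00 under TMM, so a ratio between 0 and 0.28 under TMM turns below 0 with the spike-ins. In bulk muscle, fewer cells of a type cannot be told apart from less RNA per cell.

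RefSeq promoter windows on GRCm38.p6 were matched for 5 of the 10 genes: Sparc, Fbn1, Postn, Thbs4 and Tnc. The windows that lie next to the annotated gene, those of the 3 matricellular genes Postn, Tnc and Thbs4, are shown, since those of Sparc and Fbn1 lie inside the annotated gene. Each is the 250 bases before the transcription start, written 5′ to 3′ on the strand of the gene, and capitals mark matches on either strand to a searched motif. The motifs were the TATA box TATAAA, the GC box GGGCGG, the CCAAT box, the AP-1 sequence TGAGTCA, read on both strands, and the SMAD palindrome GTCTAGAC.
Postn, chr3:54360857-54361106, plus strand: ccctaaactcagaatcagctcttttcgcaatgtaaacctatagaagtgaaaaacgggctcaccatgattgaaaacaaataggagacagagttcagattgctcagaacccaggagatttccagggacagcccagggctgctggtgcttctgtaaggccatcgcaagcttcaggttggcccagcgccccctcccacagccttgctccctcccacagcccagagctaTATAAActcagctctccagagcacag
Tnc, chr4:64047016-64047265, minus strand: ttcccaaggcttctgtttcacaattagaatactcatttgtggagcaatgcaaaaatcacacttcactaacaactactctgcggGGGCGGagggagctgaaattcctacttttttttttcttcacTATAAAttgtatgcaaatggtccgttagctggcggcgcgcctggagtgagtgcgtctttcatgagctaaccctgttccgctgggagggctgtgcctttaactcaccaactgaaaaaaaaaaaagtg
Thbs4, chr13:92794819-92795068, minus strand: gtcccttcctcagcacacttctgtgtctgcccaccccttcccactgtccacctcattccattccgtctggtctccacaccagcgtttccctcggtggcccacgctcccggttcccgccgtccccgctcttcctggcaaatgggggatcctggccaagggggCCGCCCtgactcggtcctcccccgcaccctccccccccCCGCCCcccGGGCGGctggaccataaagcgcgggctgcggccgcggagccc

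The Postn window held a TATAAA at position -26 from the start, and the Tnc window held one at -126 and a GC box at -167. The Thbs4 window held no TATAAA, and its 3 matches were all to the GC box. Of the 4 windows not shown, that of Sparc and a second one of Postn held no match, that of Fbn1 held a GC box at -185, and a second one of Tnc, which overlaps the first, held the same TATAAA and GC box at -205 and -246. Over all 32851 windows of this length, 12.4% held a TATAAA and 32.7% a GC box, 33.8% held CCAAT, 4.46% an AP-1 sequence and 0.167% the SMAD palindrome. The windows differed in base composition, with 70.8% G and C for Thbs4, 52% for Postn and 44.8% for Tnc, against a median of 52.4%. These are matches of letters only, and binding was not measured.

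The 10 genes lie on 9 chromosomes, 8 of them on the minus strand. Fbn1 spans 207.4 kb on chromosome 2 of GRCm38 (125300594 to 125507993) with 65 exons in its longest coding transcript, and Eln spans 44.7 kb on chromosome 5 (134702593 to 134747323) with 37 exons. Sparc, the shortest in coding length at 996 bases, lies on chromosome 11 (55394500 to 55423183). Fn1 lies on chromosome 1 (71585520 to 71653200), Tnc on chromosome 4 (63959785 to 64047015), Postn on chromosome 3 (54361109 to 54391037), Thbs4 on chromosome 13 (92751590 to 92794818), Thbs1 on chromosome 2 (118111876 to 118127133), Loxl1 on chromosome 9 (58287738 to 58313186) and Lox on chromosome 18. All are annotated as protein-coding. For 6 of them a gene is annotated on the opposite strand, and of those genes the 5 that the table lists had 0 counts in both genotypes.

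Sparc was by far the most abundant of the 10 genes. SPARC binds collagen and calcium and is made by fibroblasts and endothelial cells. Its level was 362 CPM in FLExDUX4 mice and 291 CPM in WT mice, and it made up 66.3% and 63.8% of the counts of the 10 genes. Thbs4 followed at 57.3 and 54.1 CPM, and the lowest was Thbs1 at 2.70 and 3.02 CPM. The order of the 10 levels was the same in both genotypes except that Eln stood above Loxl1 in FLExDUX4 mice and below it in WT mice, where the intervals of Eln and Loxl1 overlapped (10.9 to 14.2 and 13.1 to 16.6 CPM). Neighbors whose counting intervals overlapped in both genotypes were Lox and Tnc, and Tnc and Postn, and in WT mice Postn and Thbs1 overlapped too. Fbn1 and Eln overlapped in FLExDUX4 mice only, at 22.0 and 20.7 CPM, whereas in WT mice they stood at 25.1 and 12.4 CPM with separate intervals.

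**Figure D1:**
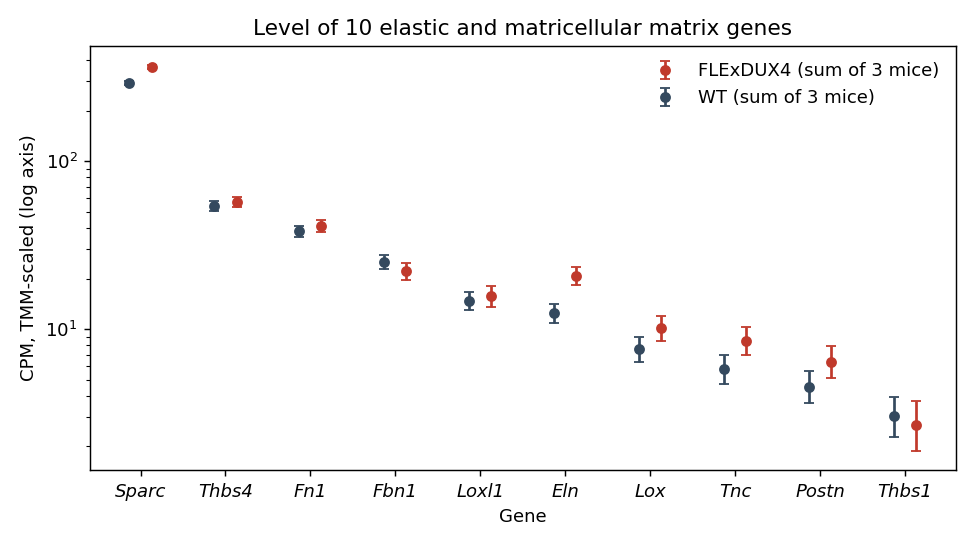
Level of each gene in CPM after TMM scaling, on a log axis, for the summed counts of 3 FLExDUX4 and 3 WT mice, with bars for the 95% exact Poisson interval (counting error only). Genes are ordered by their WT level, from Sparc at 291 CPM to Thbs1 at 3.02 CPM, and on the log axis Eln shows the widest gap between genotypes.

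By the group totals, 8 of the 10 genes were higher in FLExDUX4 mice, as were 49.7% of all genes compared and 50.4% of the 9316 genes whose total counts lay in the range of the 10, from 91 to 10105, and with spike-in scaling 5 were higher, against 25.1% of all genes. The 10 genes were chosen with earlier results of these data known, so counts of them against all genes are descriptive only. The median log2 ratio of the 10 was 0.21 under TMM and -0.07 with spike-in scaling, where the median of all genes shifted by the same -0.28. The counting interval lay above 0 for 5 genes, Eln, Tnc, Postn, Lox and Sparc, against 20.5% of all genes compared and 21.3% of those in the count range. It lay below 0 for none of the 10, against 20.6% of all genes and 20.4% of those in the count range. With spike-in scaling the interval stayed above 0 for Eln alone, against 7.59% of all genes, and lay below 0 for Fn1, Fbn1 and Thbs4, against 47.1% of all genes. The summed level of the 10 genes was 547 CPM in FLExDUX4 mice and 457 CPM in WT mice, a log2 ratio of 0.26 (interval 0.21 to 0.30). With the spike-ins it was -0.02. Without Sparc the sum was 184 against 166 CPM, a ratio of 0.15 (interval 0.08 to 0.23).

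**Figure D2:**
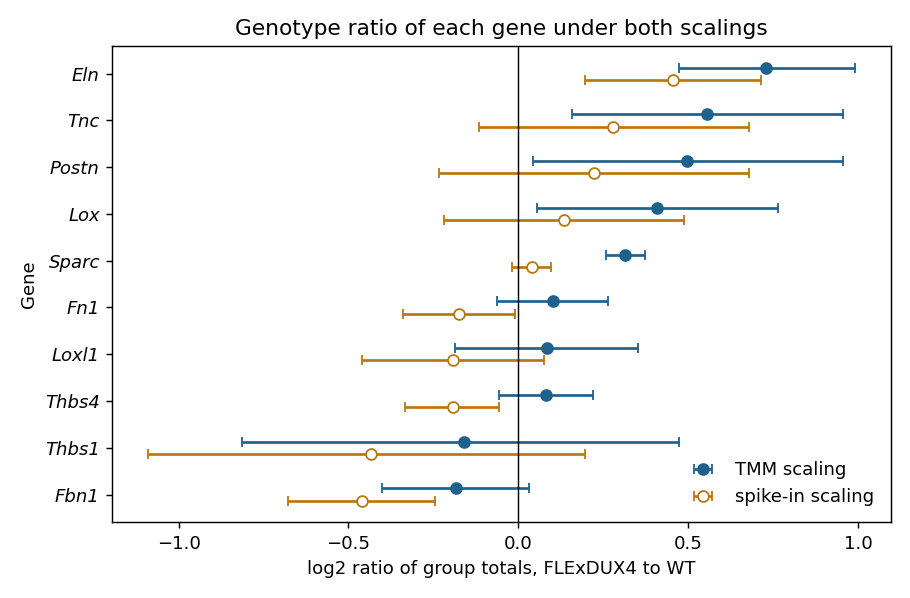
Log2 ratio of the group totals, FLExDUX4 to WT, for each gene, with 95% counting intervals, under TMM scaling (filled) and spike-in scaling (open). Eln is highest at 0.73 under TMM and 0.45 with the spike-ins, Fbn1 is lowest at -0.18 and -0.46, and every gene moves left by 0.28 between the scalings.

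Among the structural proteins of the elastic fiber, Eln and Fbn1 lay at opposite ends. Eln, which encodes tropoelastin, had 268 counts in FLExDUX4 mice and 231 in WT mice although the FLExDUX4 libraries were smaller in total. Its level was 20.7 CPM (interval 18.3 to 23.3) against 12.4 CPM (interval 10.9 to 14.2), and these intervals did not overlap. The log2 ratio of Eln was 0.73 (interval 0.47 to 0.99), a 1.66-fold higher level, and 0.45 (interval 0.20 to 0.71) with spike-in scaling. Eln was the one gene of the 10 past 1.5-fold with an interval above 0, a mark passed by 9.89% of all genes compared and 6.87% of those in the count range, and with spike-in scaling, where 5.26% of all genes passed it, Eln did not. No gene of the 10 was past 1.5-fold lower, against 10.2% of all genes and 6.33% of those in the count range. Of all genes compared, 9.85% had a higher ratio than Eln, and of the 3967 genes with a total count within 2-fold of its own, 2.09% did.

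Fbn1, which encodes the microfibril protein fibrillin-1, had 286 counts in FLExDUX4 mice and 465 in WT mice. The level was 22.0 CPM (interval 19.6 to 24.8) against 25.1 CPM (interval 22.8 to 27.4), and the intervals overlapped. The log2 ratio of Fbn1 was -0.18 (interval -0.40 to 0.03), and -0.46 (interval -0.68 to -0.25) with spike-in scaling. The Fbn1 counts were 1.07 times those of Eln in FLExDUX4 mice and 2.01 times in WT mice. The log2 ratio of Fbn1 was thus lower than that of Eln by a difference of -0.91 (exact conditional interval -1.26 to -0.57), and a difference of this kind does not depend on how the genotypes are scaled to each other.

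The crosslinking enzymes were less abundant. Lox, which encodes lysyl oxidase, had 131 counts in FLExDUX4 mice and 141 in WT mice, or 10.1 and 7.60 CPM. Its log2 ratio was 0.41 (interval 0.06 to 0.76), and 0.13 (interval -0.22 to 0.49) with spike-in scaling. Loxl1, the lysyl oxidase best known for its role in elastin upkeep, had 203 and 274 counts, or 15.6 and 14.8 CPM. The log2 ratio of Loxl1 was 0.08 (interval -0.19 to 0.35), which became -0.19 with spike-in scaling. The enzymes did not differ from each other beyond counting error, with a difference of Lox minus Loxl1 of 0.33 (interval -0.12 to 0.77). Eln stood above Loxl1 by 0.65 (interval 0.27 to 1.02).

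Fibronectin lay close to the middle. Fn1 had 533 counts in FLExDUX4 mice and 711 in WT mice, or 41.1 CPM (interval 37.7 to 44.7) against 38.3 CPM (interval 35.5 to 41.2). Its log2 ratio was 0.10 (interval -0.06 to 0.26) and turned to -0.18 (interval -0.34 to -0.01) with spike-in scaling. Eln stood above Fn1, with a difference of Fn1 minus Eln of -0.63 (interval -0.94 to -0.32).

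Of the matricellular genes, Sparc had the narrowest interval, from 4700 counts in FLExDUX4 mice and 5405 in WT mice. Its log2 ratio was 0.31 (interval 0.26 to 0.37) under TMM and 0.04 (interval -0.02 to 0.10) with spike-in scaling. Of the 430 genes with a total count within 2-fold of that of Sparc, 2.56% had a higher ratio, while 22.9% of all genes compared did. Ratios of abundant genes spread less than those of sparse genes, which the plot of ratio by total count shows.

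Tnc, which encodes tenascin-C, a protein of tendon and of matrix under repair, had 110 counts in FLExDUX4 mice and 107 in WT mice, or 8.48 and 5.77 CPM. The log2 ratio of Tnc was 0.55 (interval 0.16 to 0.95), and 0.28 (interval -0.12 to 0.68) with spike-in scaling. Postn, which encodes periostin, had 83 and 84 counts, or 6.40 and 4.53 CPM. Its log2 ratio was 0.50 (interval 0.04 to 0.95), and 0.22 (interval -0.23 to 0.68) with spike-in scaling. Both genes thus had nearly equal raw counts in the genotypes, so their ratios rest on the difference in library totals. Postn and Tnc differed from each other by -0.06 (interval -0.67 to 0.55).

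For both thrombospondins among the 10 genes, Thbs4 and Thbs1, the interval under TMM included 0. Thbs4, a thrombospondin of tendon and muscle, had 743 counts in FLExDUX4 mice and 1004 in WT mice, or 57.3 and 54.1 CPM. Its log2 ratio was 0.08 (interval -0.06 to 0.22), which became -0.19 (interval -0.33 to -0.06) with spike-in scaling. Thbs1, an activator of latent TGF-β, had 35 and 56 counts, the fewest of the 10 genes. The log2 ratio of Thbs1 was -0.16 (interval -0.81 to 0.47), and -0.43 with spike-in scaling. At this depth a difference in Thbs1 of up to 1.39-fold higher or down to 0.569 of the WT level lies within the counting interval. The difference of Thbs1 minus Thbs4 was -0.24 (interval -0.91 to 0.41).

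**Figure D3:**
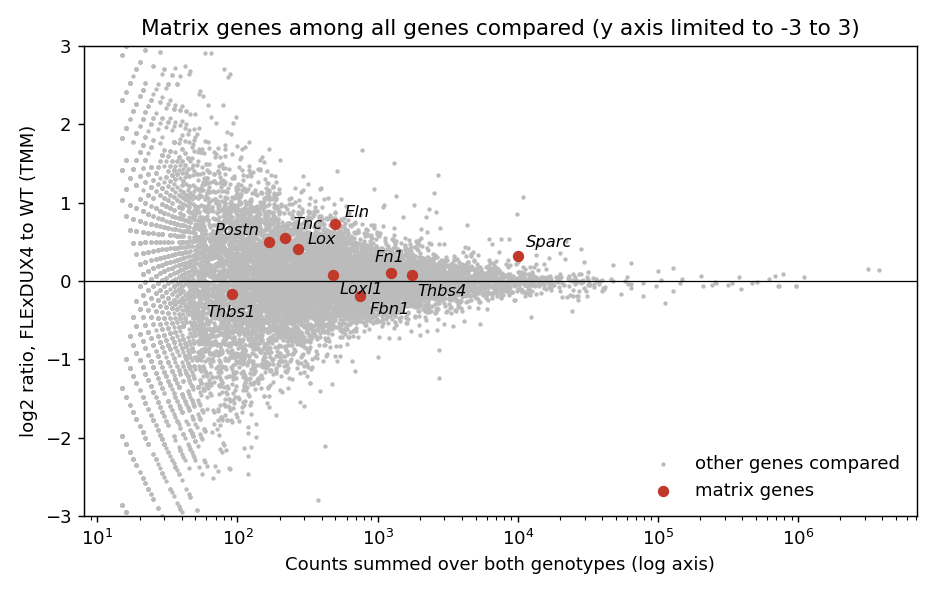
Log2 ratio of FLExDUX4 to WT under TMM against the count summed over both genotypes, on a log axis, for the genes compared (gray) and the 10 matrix genes (red). The y axis is limited to -3 to 3, and Sparc (10105 counts) and Eln (499 counts) lie toward the upper edge of the genes of like count.

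The 10 genes were also compared with each other in 45 pairs, where the scaling between genotypes cancels. For 16 pairs the interval of the difference in log2 ratio excluded 0, and Fbn1 took part in 7 of them and Eln in 6. The share among pairs of other genes was not computed, so this count describes the 10 genes and sets them apart from no others. Fbn1 and Eln had the lowest and highest ratios of the 10, so pairs that include them tend to differ most. Sparc stood above Fbn1 by 0.50 (interval 0.28 to 0.72) and above Thbs4 by 0.23 (interval 0.08 to 0.38), but below Eln by a difference of -0.42 (interval -0.68 to -0.15). Fbn1 stood below Tnc by a difference of -0.74 (interval -1.20 to -0.28), below Postn by -0.68 (interval -1.19 to -0.18) and below Lox by -0.59 (interval -1.01 to -0.18). In the same terms, the share of Eln in the counts of the 10 genes was 3.78% (interval 3.35 to 4.25) in FLExDUX4 mice and 2.72% (interval 2.39 to 3.09) in WT mice. The share of Fbn1 was 4.03% (interval 3.59 to 4.52) and 5.48% (interval 5.01 to 5.99). The shares are parts of a whole, so one that is larger makes the others smaller.

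**Figure D4:**
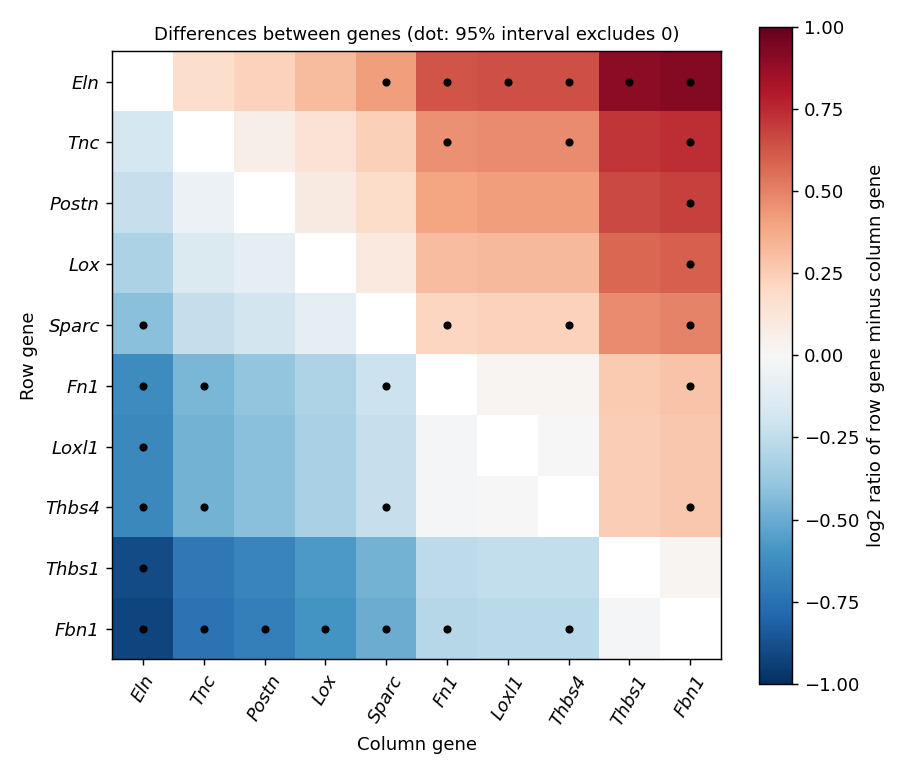
Difference in log2 ratio (FLExDUX4 to WT) between each pair of genes, row gene minus column gene, with a dot where the 95% exact conditional interval excludes 0. Dots gather in the rows of Fbn1 (7 pairs) and Eln (6 pairs), whose own difference, Fbn1 minus Eln, was -0.91.

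Genes that work beside these 10 were taken as lists, which were also chosen with earlier results of these data known. Of 20 further genes of elastic fiber assembly, 18 passed the filter, of which 9 were higher and 9 lower under TMM. Their median was -0.01. The interval lay above 0 for 5 (Fbln5, Emilin2, Mfap5, Ltbp1 and Loxl3) and below 0 for Emilin1, against 20.5% and 20.6% of all genes compared. Those with the most counts had ratios near 0, namely -0.03 for Ltbp4, which binds latent TGF-β, -0.05 for Fbln2 and 0.11 for Ltbp3. Mfap5, a protein of microfibrils as fibrillin is, had a ratio of 0.53 (interval 0.30 to 0.76). Fbln5, which links tropoelastin to lysyl oxidases, had 173 and 197 counts and a ratio of 0.33 (interval 0.03 to 0.63). Apart from Ltbp4, Fbln2 and Ltbp3, the genes of this list were named after their values were seen.

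Of 19 other matricellular genes 17 were compared, 8 higher and 9 lower, with a median of -0.01. The interval lay above 0 for 5 and below 0 for 3, against 20.5% and 20.6% of all genes compared. Among the abundant ones Smoc2 had a ratio of -0.01 (interval -0.10 to 0.09), Sparcl1, the closest relative of Sparc in the list, of -0.37 (interval -0.47 to -0.27), and Ctgf, a target of TGF-β, of 0.97 (interval 0.80 to 1.15). Sparcl1 thus lay on the other side of 0 from Sparc under TMM, with 1260 counts in FLExDUX4 mice and 2324 in WT mice. Tnn and Spon2 were past 2-fold. The ratio of Tnn was 1.88 (interval 0.45 to 3.83) from 14 and 5 counts, and that of Spon2 was -3.51 (interval -6.00 to -2.06) from 3 and 55 counts. Each passed the filter only through the genotype where it was higher, Tnn in FLExDUX4 mice and Spon2 in WT mice. Comp, a thrombospondin of cartilage and tendon, had 0 counts in FLExDUX4 mice and 10 in WT mice and did not pass the filter.

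Of 10 receptors for these proteins, 9 were higher under TMM, against 49.7% of all genes, with a median of 0.20 that became -0.08 with spike-in scaling. The interval lay above 0 for 5 receptors and below 0 for 0, against 20.5% and 20.6% of all genes. Cd36 had a ratio of 0.24, Itgb1 of 0.20 and Cd47 of 0.12, and Itga8, with 22 counts against 12, had the highest at 1.35 (interval 0.31 to 2.54). Of 9 genes for TGF-β ligands, receptors and response, 5 were higher and 4 lower under TMM, and the interval lay above 0 for 4 and below 0 for 4. The median of the latter list was 0.25 (-0.03 with spike-in scaling), while the ratio of its summed counts was -0.07. The ligand Tgfb2 had a ratio of -0.42 and Tgfb1 of -2.91 (interval -4.97 to -1.59), from 4 counts against 47, while the receptor Tgfbr3 had 0.38 and Smad3 -0.18. Tgfb1 passed the filter only through WT mice, where it was higher. Of 6 elastin-degrading enzymes 4 were compared, with 1 interval above 0 and 1 below, a median of 0.14 (-0.13 with spike-in scaling) and ratios of 0.34 for Mmp2, 0.23 for Ctss and -1.34 for Mmp9.

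**Figure D5:**
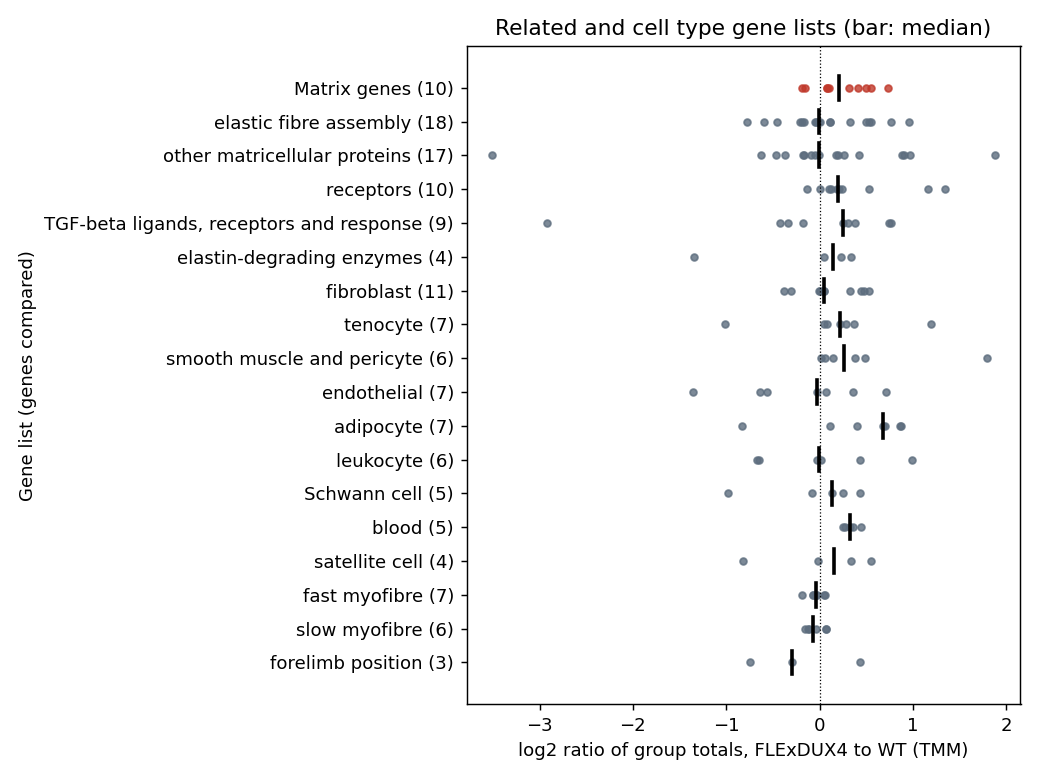
Log2 ratio of FLExDUX4 to WT under TMM for the 10 matrix genes (red) and for each gene compared in the related and cell type lists (gray), with the number of genes in parentheses and a bar at the median. The matrix genes center on 0.21, fast myofiber markers near 0 and adipocyte markers on 0.68.

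Markers of the cells that can make these proteins, and of other cells of muscle, were also compared between the totals. The counts below stand against 49.7% of all genes that were higher under TMM, 20.5% with an interval above 0 and 20.6% with one below. Of 11 fibroblast markers 8 were higher under TMM, and their summed level was 2489 CPM in FLExDUX4 mice and 2242 CPM in WT mice, a log2 ratio of 0.15 (interval 0.13 to 0.17). The median of the list was lower, at 0.05 under TMM, and the interval lay above 0 for 5 and below 0 for 1. Dcn and Gsn had ratios of 0.04 and 0.05, the collagen genes Col1a1, Col1a2 and Col3a1 had 0.53, 0.33 and 0.01, and Cd34, the gene with the interval below 0, had -0.31 (interval -0.50 to -0.11). All 6 smooth muscle and pericyte markers were higher under TMM, 3 of them with an interval above 0. Their sum was 357 against 328 CPM, a ratio of 0.12, and Acta2 had a ratio of 0.38, Rgs5 of 0.06, Pdgfrb of 0.14 and Cnn1, with 30 counts against 12, of 1.79. Of 7 tenocyte markers 6 were higher under TMM, 3 with an interval above 0, and 1 had an interval below 0. Their sum was 156 against 144 CPM, a ratio of 0.11. Fmod had 0.08, Chad 0.29 and Cilp2 0.22, while the tendon factors Mkx and Scx had 1.20 and -1.02. With spike-in scaling these sums had ratios of -0.13 for fibroblasts, -0.15 for smooth muscle and pericytes and -0.16 for tenocytes. No defining marker of these cells was at 0.

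Endothelial markers summed to 182 against 200 CPM, a ratio of -0.13 (interval -0.21 to -0.06) under TMM and -0.41 with the spike-ins. Their median was -0.03 under TMM, and Kdr, with 632 counts against 1334, weighed heavily on the sum. Of the 7 markers 3 were higher and 4 lower under TMM, with 1 interval above 0 and 3 below. Kdr had a ratio of -0.56, Pecam1 of 0.06, Cdh5 of -0.03, Cldn5, with 17 counts against 63, of -1.35, and Vwf of 0.71. Adipocyte markers summed to 384 against 300.1 CPM, a ratio of 0.36 (interval 0.30 to 0.41) and of 0.08 with spike-in scaling. Of the 7 markers 6 were higher under TMM, all 6 with an interval above 0, against 49.7% and 20.5% of all genes compared. Fabp4, with the most counts of the list (2929 and 3869), had a ratio of 0.11, Cfd of 0.88, Adipoq of 0.70 and Lep, with 12 counts against 31, of -0.83. Blood markers summed to 1279 against 1020 CPM, a ratio of 0.33, or 0.05 with spike-in scaling. All 5 were higher under TMM with their intervals above 0, again against 49.7% and 20.5% of all genes compared. Leukocyte, Schwann cell and satellite cell markers had ratios of their sums of -0.01, 0.08 and -0.09, and fast and slow myofiber markers of -0.02 and -0.08. The part of these cell types in the ratios of the matrix genes was not tested.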

How the data were processed

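Muscle RNA of 3 FLExDUX4 and 3 WT mice was sequenced by QuantSeq 3′ mRNA-seq. Per the labels and the methods of the study, the authors trimmed reads with Cutadapt 1.16 and aligned them with STAR 2.5.3a to GRCm38 plus the ERCC and SIRV spike-in sequences, and the processing notes also name featureCounts 1.6.2. Whether counting used strand is not given in the sources used here. The authors deposited raw counts summed per genotype, without normalization. The table also holds 6 columns of single libraries that match no sample label, and the authors' mean, fold change and p-value columns, none of which were used.

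Totals without spike-ins were scaled with edgeR 4.0.16 in R 4.3.3 (TMM). The filter, filterByExpr, left 13396 genes, and the log2 ratio used a pseudocount of 0.5 at mean depth. No test across replicates was made, since each genotype is 1 total. Intervals are 95% Clopper-Pearson for ratios and shares, exact Poisson for levels, and exact conditional for pairs (scipy 1.17.1, Python 3.11.15), and cover counting error only. A total of 3 counts, the floor, equals 0.231 CPM in FLExDUX4 mice and 0.162 in WT mice. Scripts were tested on simulated counts. Alternatives were RLE, upper quartile, gene totals, spike-in totals, other filters and a pseudocount of 5. The members and lists were chosen with earlier results of these data known. Named genes were the 10 members, the 3 genes with the most counts in a list, and list genes past 2-fold with an interval excluding 0, and other genes were named after their values were seen. Of marker genes under that rule, only those of cells near the matrix are named. Coordinates are from GENCODE M21 (GRCm38), and are given for the 9 of 10 genes that start where the deposited table has them. Promoter sequences are from RefSeq (GRCm38.p6).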

Additional observations from a re-analysis of the deposited data

How the results depend on the processing

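No paired analysis was possible because the columns of single libraries match no sample label and each genotype was taken as its total. For that reason leaving out each replicate, DESeq2 and edgeR tests were not run. The number of the 10 genes higher in FLExDUX4 mice was 8, their median log2 ratio kept its direction, and 1 gene (Eln) was past 1.5-fold higher, under RLE, upper quartile, gene totals, a pseudocount of 5, a minimum of 10 counts in each total and no filter. Of these scalings, gene totals moved the log2 ratios most, by -0.030. The lowest of the 8 positive ratios was 0.08, so none of the 8 could turn under these settings. Spike-in totals gave 5 genes higher, a median of -0.068 and 0 genes past 1.5-fold. They turned the ratios of Fn1 (-0.175), Loxl1 (-0.192) and Thbs4 (-0.194), since they lower every ratio alike, and what set the spike-in totals apart was not tested. List medians that turned with spike-in totals were those of receptors (-0.079), TGF-β genes (-0.028), elastin-degrading enzymes (-0.133), and markers of fibroblasts (-0.229), tenocytes (-0.055), smooth muscle and pericytes (-0.015), Schwann cells (-0.139) and satellite cells (-0.117). With at least 10 counts in each total, which leaves fewer genes, the medians of elastic fiber assembly (0.099) and of other matricellular genes (0.071) turned to above 0. Leaving Sparc out of the summed counts raised the shares of all 9 other genes, with Eln at 11.2% in FLExDUX4 mice and 7.52% in WT mice and Fbn1 at 12.0% and 15.1%. The spread between mice was not measured here, and for Thbs1, Postn and Tnc the counts limit the precision.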
